A study of Mus musculus with 12 samples.

Results

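The genes described here are 9 markers of megakaryocytes (MKs) and platelets, namely Pf4, Ppbp, Vwf, Itga2b, Gp1ba, Gp1bb, Gp5, Gp9 and Gp6, taken by name from the 31272 gene names of an RNA-seq series. All 9 were found, and each stood on a row of the tables. There were 12 libraries, 3 in each group, of bone marrow from wild-type C57BL/6 mice sorted for hematopoietic stem cells (HSCs). The groups were Ctrl, IR (irradiated), Ab_IR and L_IR, and the irradiated cells were collected at 3 days after exposure. Irradiation was a sublethal total body dose of gamma rays. What Ab and L stand for is not spelled out in the labels, which give no age and do not say whether replicates came from separate mice, so p-values measure only the spread between these libraries. The study's sort took cells that lacked lineage antigens, CD34 and Flt3 and carried Sca-1 and c-Kit, after magnetic depletion of lineage cells with a commercial cocktail whose antibodies its methods do not list.

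MKs are the large marrow cells that shed platelets. They pack chemokines and clotting proteins into alpha-granules (Pf4, also called CXCL4, Ppbp, the precursor of CXCL7, and Vwf, von Willebrand factor) and carry receptors that bind vessel wall proteins. Itga2b encodes CD41, which pairs with the integrin beta chain of Itgb3 to bind fibrinogen, the products of Gp1ba, Gp1bb, Gp9 and Gp5 form the GPIb-IX-V receptor for von Willebrand factor, and Gp6 encodes the collagen receptor GPVI. In marrow, transcripts such as Vwf, Itga2b and Pf4 are also known from stem cells that lean towards the MK lineage.

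Values are FPKM (fragments scaled by transcript length and library size), which are scaled per length, so levels can be compared between genes. They carry no read counts, so the depth is unknown. A change in FPKM of these bulk samples cannot tell fewer cells of a type from less RNA per cell. Some libraries stood apart. Ctrl replicate 1 had 44.1% of gene rows at 0 against 24.7% to 27.3% in the other 11. Transcripts of heart muscle, a tissue that was not sampled, summed to 123 to 157 FPKM over 10 genes in Ctrl replicates 2 and 3 and all IR libraries and to 0.87 to 1.24 FPKM in Ctrl replicate 1, Ab_IR and L_IR, so the libraries split into 5 and 7. IR and Ctrl share a side of this split without Ctrl replicate 1, whereas IR against Ab_IR or L_IR and the split cannot be told apart except through that library. Of transcripts that define the labelled cell type, Hoxb5, Fgd5 and Mecom stayed under 1 FPKM in all 12 libraries, while Hlf was at 1.14 to 2.40 FPKM, Hoxa9 at 1.70 to 3.18 FPKM and Kit at 6.7 FPKM or more. Cd34 and Flt3, whose products the sorted cells lack at the surface, were at 19 to 20.7 and 9.13 to 12.1 FPKM in Ctrl, and at 3.66 to 3.91 and 0.96 to 1.22 FPKM in IR. Ltf, a neutrophil granule gene, reached 290 FPKM.

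The 9 genes lie on 5 mouse chromosomes, with positions given on GRCm38 from GENCODE M21. Ppbp (chr5:90768518-90770063, plus strand) and Pf4 (chr5:90772435-90773383, plus strand) are neighbours in a chemokine cluster, with 2371 bases between them. Itga2b (chr11:102453297-102470122, minus strand) and Gp1ba (chr11:70639122-70642036, plus strand) share a chromosome, as do Gp1bb (chr16:18620317-18622403, minus strand) and Gp5 (chr16:30307685-30310779, minus strand), and Gp9 (chr6:87778072-87779768, plus strand) and Vwf (chr6:125546774-125686679, plus strand). Gp6 is at chr7:4363965-4397744, minus strand. Gp1bb overlaps Septin5 on the same strand, which holds 91.1% of its exon bases, so reads of the pair cannot be separated there and Gp1bb values are uncertain.

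As these genes are textbook targets of GATA and ETS factors, the 250 bases before the RefSeq start (GRCm38.p6) were searched on both strands. The letters AGATAA and, as a further form, TGATAA were taken as GATA motifs. The letters AGGAAG and, as a further form, CGGAAG were taken as ETS motifs, and the letters TGTGGT as a RUNX motif. RefSeq promoters were matched for 8 of the 9 genes, all but Vwf. A GATA motif stood in 3 of the 8 (Gp1ba, Gp5 and Gp6) and in 16.6% of 32851 mouse promoters of that length, an ETS motif in 6 of the 8 (Pf4, Itga2b, Gp1ba, Gp1bb, Gp5 and Gp9) and in 39.2%, and a RUNX motif in 1 (Gp9) and in 14% of the promoters. Both a GATA and an ETS motif were found for Gp1ba and Gp5, as in 5.49% of all promoters. Shown are the neighbouring chemokine genes Pf4 (chr5:90772185-90772434, plus strand), with 1 ETS motif, and Ppbp (chr5:90768268-90768517, plus strand), with none of these motifs, whose log2 differences between IR and the other groups were the largest of the tested genes, and the receptor genes Gp1ba (chr11:70638872-70639121, plus strand) and Gp5 (chr16:30310782-30311031, minus strand), with 2 GATA motifs and 1 ETS motif each. Letters run 5′ to 3′ on the strand of the gene and end at the base before the start, and capitals mark the motifs. A match in these windows is a description of the letters and not a binding site.
Pf4: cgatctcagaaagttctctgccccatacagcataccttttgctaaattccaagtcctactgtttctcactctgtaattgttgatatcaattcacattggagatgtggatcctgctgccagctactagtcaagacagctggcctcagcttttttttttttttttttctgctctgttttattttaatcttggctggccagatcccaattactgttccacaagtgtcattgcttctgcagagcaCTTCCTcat
Ppbp: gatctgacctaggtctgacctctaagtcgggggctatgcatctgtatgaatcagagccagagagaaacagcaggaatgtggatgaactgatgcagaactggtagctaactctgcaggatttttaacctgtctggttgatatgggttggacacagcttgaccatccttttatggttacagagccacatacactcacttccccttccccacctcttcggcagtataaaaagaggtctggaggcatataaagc
Gp1ba: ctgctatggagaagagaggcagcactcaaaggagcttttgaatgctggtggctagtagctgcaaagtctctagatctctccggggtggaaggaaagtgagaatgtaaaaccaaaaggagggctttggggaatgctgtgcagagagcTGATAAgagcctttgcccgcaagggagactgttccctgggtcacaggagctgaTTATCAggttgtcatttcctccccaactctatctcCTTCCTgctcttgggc
Gp5: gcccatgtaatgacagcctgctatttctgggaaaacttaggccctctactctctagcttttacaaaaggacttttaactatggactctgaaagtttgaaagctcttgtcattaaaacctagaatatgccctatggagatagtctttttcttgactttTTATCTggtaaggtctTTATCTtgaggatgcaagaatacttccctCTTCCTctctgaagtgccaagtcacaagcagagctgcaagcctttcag

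The 9 genes shared 1 pattern over the groups. Their summed level was 58.3 to 73 FPKM in Ctrl, 13.7 to 15.6 FPKM in IR, 146 to 150 FPKM in Ab_IR and 91.2 to 96.8 FPKM in L_IR, so no group overlapped another. Without Ppbp the sums were 48.2 to 58.7 FPKM in Ctrl, 12 to 13.7 FPKM in IR, 79.2 to 83.2 FPKM in Ab_IR and 54.5 to 62.1 FPKM in L_IR, and L_IR overlapped Ctrl. Every gene had its lowest mean in IR and its highest in Ab_IR. L_IR stood next to Ab_IR except for Itga2b, where Ctrl lay between them. Across the 12 libraries, Pearson's r of log2(FPKM + 1) between the 7 genes with a mean of 1 FPKM or more was 0.92 to 0.99 over 21 pairs, which is a description, since all pairs share the same libraries and groups.

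Among the alpha-granule genes, Ppbp spanned the widest range. It was listed at 10.1, 15.3 and 14.3 FPKM in Ctrl replicates 1 to 3 and at 1.84, 1.7 and 1.71 FPKM in IR. It was at 67.5, 63.9 and 67.0 FPKM in Ab_IR and at 32.5, 34.8 and 37.7 FPKM in L_IR. No group of Ppbp overlapped another, and both Ab_IR and L_IR exceeded Ctrl in every library. Pf4 was listed at 18.6, 24.7 and 27.1 FPKM in Ctrl and at 4.89, 3.41 and 4.32 FPKM in IR. It was at 38.1, 36.5 and 39.0 FPKM in Ab_IR and at 25.3, 29.1 and 23.3 FPKM in L_IR. Thus IR was lowest and Ab_IR highest in every library, while L_IR and Ctrl overlapped. Vwf was lower than both chemokine genes in every library, at 1.6 to 2 FPKM in Ctrl, 0.72 to 0.78 FPKM in IR, 2.11 to 2.29 FPKM in Ab_IR and 1.92 to 2.21 FPKM in L_IR. Of Vwf, IR stood below all other libraries, and L_IR overlapped both Ab_IR and Ctrl.

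Itga2b was the most abundant of the receptor genes, with an SD of at most 0.737 FPKM in any group. Its values were 17.3, 16.7 and 17.4 FPKM in Ctrl, 5.20, 5.25 and 5.50 FPKM in IR, 20.3, 21.8 and 20.9 FPKM in Ab_IR and 16.2, 15.1 and 15.2 FPKM in L_IR. All 4 groups of Itga2b were separate, in the order Ab_IR, Ctrl, L_IR and IR. Gp9, a subunit of the GPIb-IX-V receptor, was listed at 3.37, 5.98 and 6.52 FPKM in Ctrl, 1.27, 0.90 and 1.25 FPKM in IR, 9.16, 9.80 and 9.37 FPKM in Ab_IR and 6.67, 6.85 and 5.81 FPKM in L_IR. Ctrl replicate 1 was low for Gp9, and L_IR overlapped the other Ctrl libraries. Gp5, which encodes the CD42d antigen used to define MKs in the study, was at 3.42, 2.44 and 2.83 FPKM in Ctrl, 1.02, 1.03 and 0.97 FPKM in IR, 4.53, 6.13 and 5.24 FPKM in Ab_IR and 3.75, 4.18 and 4.17 FPKM in L_IR. The 4 groups of Gp5 did not overlap, with L_IR between Ab_IR and Ctrl. Gp1ba, the subunit that binds von Willebrand factor, was at 3.39, 1.87 and 2.38 FPKM in Ctrl, 0.55, 0.61 and 0.49 FPKM in IR, 3.57, 3.86 and 4.45 FPKM in Ab_IR and 3.25, 2.91 and 2.91 FPKM in L_IR. Unlike for Gp9, Ctrl replicate 1 was the highest Ctrl library for Gp1ba and for Gp5, and Ctrl overlapped L_IR for Gp1ba.

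Gp6 and Gp1bb were near the bottom of the measured range. Gp6 was listed at 0.11, 0.27 and 0.28 FPKM in Ctrl, 0.04, 0.02 and 0 FPKM in IR, 0.97, 0.82 and 0.68 FPKM in Ab_IR and 0.53, 0.54 and 0.62 FPKM in L_IR. Its libraries never reached 1 FPKM, yet its 4 groups did not overlap and stood in the same order as those of Ppbp. Gp1bb, the other chain linked to Gp1ba, varied most between replicates, at 0.02 to 0.23 FPKM in Ctrl, 0.02 to 0.16 FPKM in IR, 0.43 to 1.37 FPKM in Ab_IR and 0.21 to 1.55 FPKM in L_IR. Septin5, whose exons cover most of Gp1bb, had another order of groups, with 11.4 to 13.8 FPKM in Ctrl, 14.1 to 15.2 FPKM in IR, 11.5 to 13.4 FPKM in Ab_IR and 6.89 to 7.40 FPKM in L_IR. Septin5 was named after its values were seen.

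**Figure D1:**
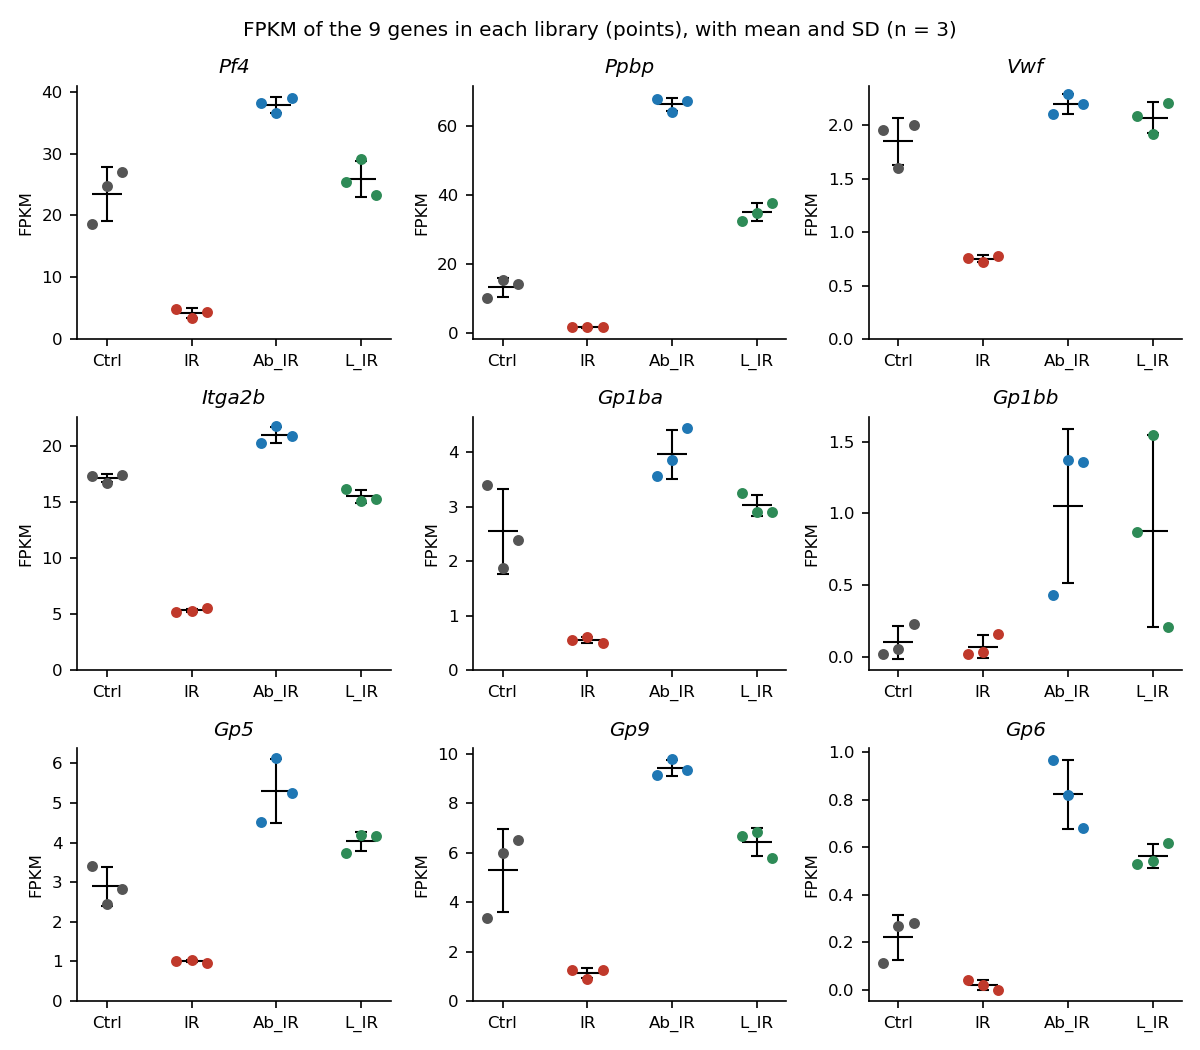
FPKM of each of the 9 genes (a panel per gene, linear axis) in the 12 libraries, points being libraries and black marks the group mean with SD (n = 3). In every panel the IR libraries sit lowest on average, and for Ppbp the 3 Ab_IR libraries (63.9 to 67.5 FPKM) lie far above the 3 Ctrl libraries (10.1 to 15.3 FPKM).

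IR was set against Ctrl to ask how MK and platelet transcripts of the sorted cells stood at 3 days after irradiation. They were lower, with Ppbp 7.58-fold, Pf4 5.58-fold, Gp9 4.64-fold, Gp1ba 4.63-fold and Itga2b 3.22-fold lower in IR by the ratio of group means. The test was limma on log2(FPKM + 1) over 12072 genes, a scale that understates the change of genes of low level. Calls needed both an adjusted p (Benjamini-Hochberg) under 0.05 and a difference above 1 on the log2 scale. Of the 7 genes tested, 5 were called lower in IR, and 4.57% of all tested genes were. Ppbp differed by -2.36 (SE 0.149, adjusted p 9.54e-05) and Pf4 by -2.23 (SE 0.166, adjusted p 0.000178). Itga2b had -1.52 (SE 0.0586, adjusted p 1.92e-05), Gp9 had -1.52 (SE 0.216, adjusted p 0.00222) and Gp1ba had -1.17 (SE 0.163, adjusted p 0.00205). Gp5 (-0.95, adjusted p 0.00104) and Vwf (-0.70, adjusted p 0.00182) passed the adjusted p but not the difference of 1, which both passed with a pseudocount of 0.1 (-1.42 and -1.19), as did Gp5 without Ctrl replicate 2 (-1.04). Gp1bb and Gp6 did not reach 1 FPKM in 3 libraries and were not tested, and Gp1ba and Vwf passed that filter through Ctrl only, as all their IR values were under 1 FPKM. IR lay below Ctrl without overlap for 8 of the 9 genes, the 7 tested and Gp6 but not Gp1bb, where 32.8% of all tested genes did so. Within the libraries that carry heart transcripts, that is, without Ctrl replicate 1, the same 5 genes were called, with log2 fold changes of -2.52 for Ppbp, -2.38 for Pf4, -1.76 for Gp9, -1.51 for Itga2b and -1.01 for Gp1ba.

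The comparisons of Ab_IR and of L_IR with IR ask what the added labels mark in irradiated cells. In both, the same 6 genes were called higher than in IR. By the ratio of means, Ppbp was 37.8-fold higher in Ab_IR and 20-fold higher in L_IR, Pf4 was 9-fold and 6.16-fold higher, Gp9 8.28-fold and 5.65-fold, Gp1ba 7.2-fold and 5.5-fold, Gp5 5.26-fold and 4.01-fold, and Itga2b 3.94-fold and 2.91-fold. The background was 5.11% of 12067 tested genes called higher in Ab_IR and 4.09% of 12163 in L_IR. Both comparisons share the IR libraries, so they are not independent of each other.

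On the log2(FPKM + 1) scale, Ppbp exceeded IR by 4.61 (SE 0.0418, adjusted p 2.85e-09) in Ab_IR, and in L_IR it did so by 3.71 (SE 0.0573, adjusted p 3.28e-08). In the same order, Pf4 was higher by 2.91 (SE 0.0995, adjusted p 5.92e-07) and 2.37 (SE 0.119, adjusted p 4.54e-06), and Gp9 by 2.29 (SE 0.0776, adjusted p 5.72e-07) and 1.80 (SE 0.0894, adjusted p 4.34e-06). The remaining called receptor genes had differences of 1.80 (Itga2b), 1.67 (Gp1ba) and 1.64 (Gp5) in Ab_IR, with adjusted p of 1.34e-07, 2.25e-06 and 5.27e-06. In L_IR these differences were 1.38, 1.38 and 1.33, with adjusted p of 4.36e-07, 2.66e-06 and 1.81e-06. Vwf differed by 0.87 (adjusted p 9.86e-06) and 0.81 (adjusted p 2.44e-05), short of the difference of 1, which it passed with a pseudocount of 0.1 (1.43 and 1.35). All 9 genes, of which 7 were tested, were above IR without overlap in both groups. So were 41.4% of the tested genes in Ab_IR and 43.1% in L_IR. Gp1ba and Vwf were again tested through 1 group only, and Gp1bb and Gp6 were not tested. With the heart transcript split as a term of a fit to all 12 libraries, which then rests on Ctrl replicate 1, the 6 calls in Ab_IR stayed past both thresholds, and Gp1ba in L_IR did not (0.88, adjusted p 0.00063).

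**Figure D2:**
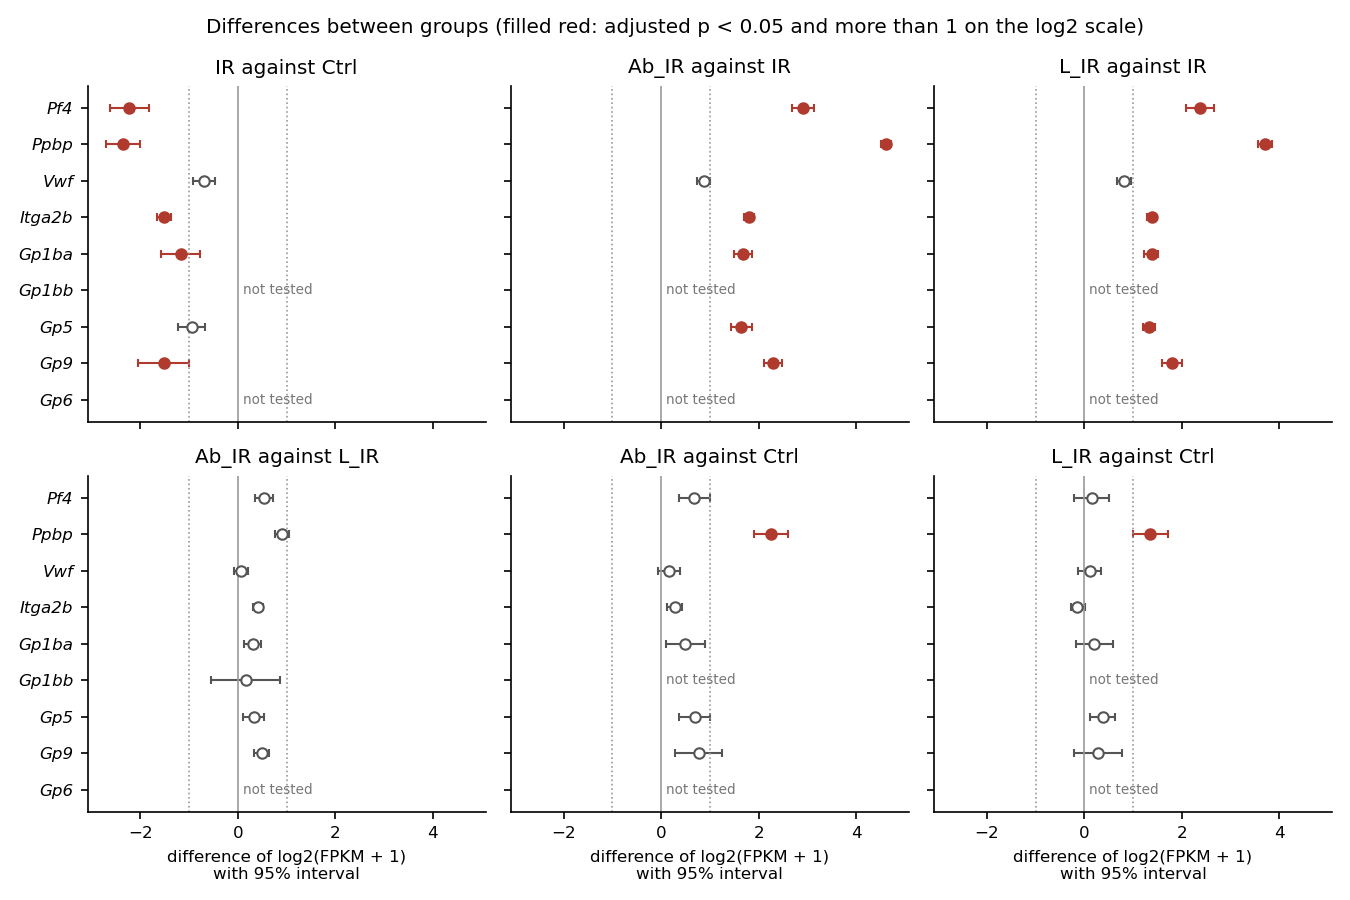
Differences of log2(FPKM + 1) between the group named first and the group named second, with 95% intervals from limma, for the 9 genes in 6 comparisons. Filled red points passed both thresholds, dotted lines stand at -1 and 1, and the Ppbp point is the only filled one in the comparisons of Ab_IR and of L_IR with Ctrl.

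Set against Ctrl, Ppbp alone was called, and it was higher in both groups. It was 4.99-fold higher than Ctrl in Ab_IR by the ratio of means (2.25 on the log2 scale, SE 0.147, adjusted p 0.00129) and 2.64-fold higher in L_IR (1.35, SE 0.152, adjusted p 0.00337). Background shares were 0.692% of 12134 genes called higher in Ab_IR and 2.03% of 12251 in L_IR. The other 6 tested genes had differences of 0.17 (Vwf) to 0.77 (Gp9) between Ab_IR and Ctrl, with adjusted p of 0.0606 to 0.333. Yet Ab_IR lay above Ctrl without overlap for 9 of the 9 genes, of which 7 were tested, where 16% of tested genes did. Leaving out Ctrl replicate 1 changed these adjusted p-values. Without it, Pf4 (0.53, adjusted p 0.00566), Gp9 (0.53, adjusted p 0.00649), Gp5 (0.79, adjusted p 0.012), Gp1ba (0.67, adjusted p 0.0176) and Itga2b (0.28, adjusted p 0.0471) passed the adjusted p beside Ppbp, none of them with a difference above 1. In a fit of all 12 libraries, 7 of 8 genes passed the adjusted p, all but Vwf, and Ppbp alone was called. With the heart transcript split as a term, Gp9 was called too (1.26, adjusted p 1.02e-05).

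Between L_IR and Ctrl, the groups did not overlap for Ppbp, Gp5 and the untested Gp6, higher in L_IR, and for Itga2b, lower in L_IR. Of all tested genes, 17.6% were higher and 18.4% lower in L_IR without overlap. Pf4 differed by 0.15 (95% interval -0.22 to 0.51, adjusted p 0.589), and its sign turned without Ctrl replicate 1. Itga2b differed by -0.14 (-0.28 to 0.01, adjusted p 0.222), Gp9 by 0.28 (-0.22 to 0.78, adjusted p 0.454) and Gp5 by 0.38 (0.11 to 0.64, adjusted p 0.091). Without Ctrl replicate 1, Gp5 (0.47, adjusted p 0.0104) and Gp1ba (0.37, adjusted p 0.0392) passed the adjusted p beside Ppbp. In a fit of all 12 libraries, Gp5 alone passed it beside Ppbp. With the heart transcript split as a term, Pf4 (0.45, adjusted p 0.0243) and Gp9 (0.77, adjusted p 0.000288) did so beside Ppbp, and Gp5 and Gp1ba did not.

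Ab_IR and L_IR were then compared directly, both being on the same side of the heart transcript split. None of the genes was called, as no difference exceeded 1, against a background of 0.295% of 12194 genes called higher in Ab_IR. Of the 8 genes tested, 6 passed the adjusted p with higher values in Ab_IR, as did 18.2% of all tested genes. Of the 9, 7 were above L_IR without overlap, among them the untested Gp6, where 25.2% of tested genes were. Ppbp differed by 0.90 (95% interval 0.77 to 1.04, adjusted p 6.72e-05), a 1.89-fold ratio of means. Pf4 differed by 0.54 (0.36 to 0.72, adjusted p 0.00193), Gp9 by 0.49 (0.34 to 0.64, adjusted p 0.0012) and Itga2b by 0.41 (0.31 to 0.52, adjusted p 0.000619). Gp5 (0.32, adjusted p 0.0334) and Gp1ba (0.30, adjusted p 0.0194) were closer to the threshold, and leaving out single libraries took their adjusted p up to 0.0988 and 0.0647. In a fit of all 12 libraries, Pf4, Ppbp and Itga2b passed the adjusted p, while Gp9, Gp5 and Gp1ba did not. The groups overlapped for Vwf (0.06, -0.08 to 0.20, adjusted p 0.468) and for Gp1bb (0.16, -0.55 to 0.86, adjusted p 0.707), the latter with a wide interval.

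The genes did not move in proportion, so the make-up of the summed signal differed between groups. The ratio of Ppbp to Pf4 within a library was 0.529 to 0.621 in Ctrl and 0.376 to 0.499 in IR, where Pf4 was the more abundant of the pair. It was 1.72 to 1.77 in Ab_IR and 1.20 to 1.62 in L_IR, where Ppbp was. Ppbp made up 17.4% to 22.2% of the summed FPKM of the 9 genes in Ctrl, 11.3% to 12.4% in IR, 43.6% to 46.0% in Ab_IR and 35.6% to 40.9% in L_IR. Itga2b, by contrast, made up 33.4% to 38.4% of it in IR, more than in any other group. The ratio of Itga2b to its partner Itgb3 was 2.29 to 2.58 in Ctrl, 1.47 to 1.73 in IR, 1.79 to 1.83 in Ab_IR and 1.72 to 1.85 in L_IR. It was therefore higher in Ctrl than in the 3 irradiated groups. These ratios were chosen after the values were seen and are descriptions with no test.

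**Figure D3:**
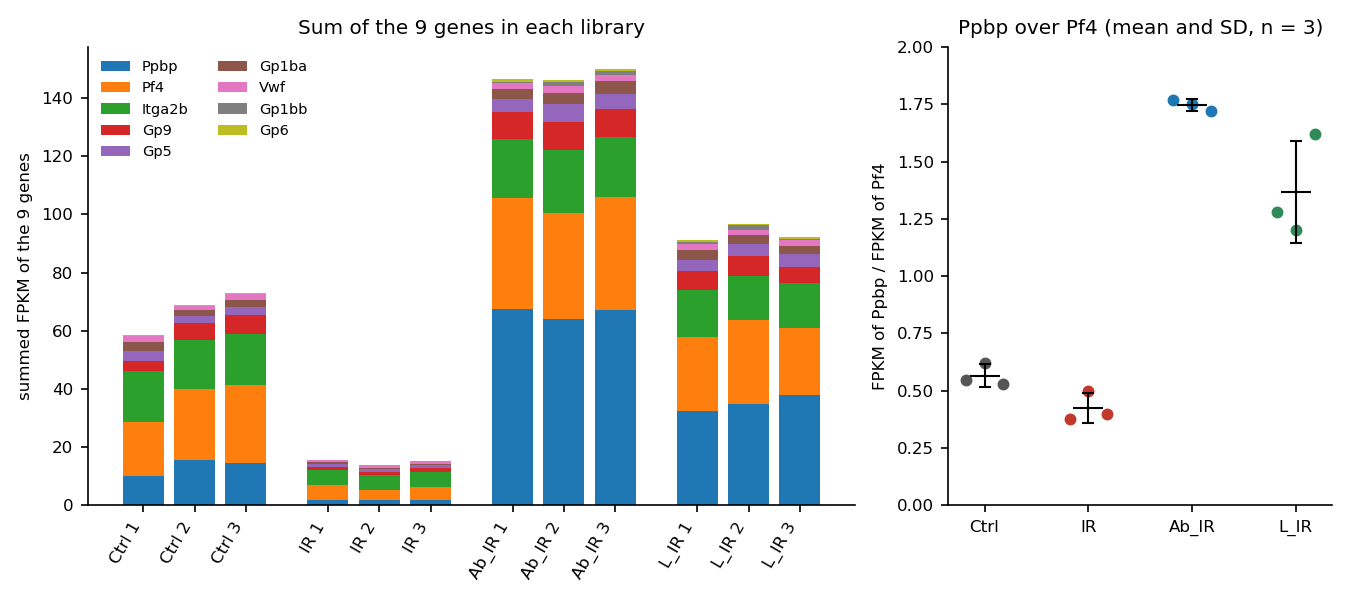
Left, summed FPKM of the 9 genes in each library, stacked by gene. Right, the ratio of Ppbp to Pf4 FPKM in each library with mean and SD (n = 3), which lies at or under 0.621 in the 6 Ctrl and IR libraries and at or above 1.20 in the 6 Ab_IR and L_IR libraries.

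A wider set of 80 genes of the lineage, in 5 lists, moved less evenly than the 9. In IR against Ctrl, 15 of 68 tested genes were called lower and 3 higher, where 4.57% of all tested genes were lower and 3.03% higher. In Ab_IR, 21 of 73 were called higher and 3 lower than in IR, beside 5.11% and 2.46% of all genes. In L_IR, 15 of 72 were called higher and 2 lower, beside 4.09% and 2.13%. The counts given below for each of the 5 lists stand beside these same shares. With so few genes in a list, a count of 1 is near them and is not a result about the list. The filter was passed through the higher group only, with every library of the other group under 1 FPKM, by 4 of the 15 genes called lower in IR, 7 of the 21 called higher in Ab_IR and 3 of the 15 called higher in L_IR. Over the tested genes of the 80, median differences were -0.17, 0.51 and 0.26, beside -0.05, 0.06 and 0.07 over all tested genes. The tested genes among the 9 had medians of -1.52, 1.80 and 1.38.

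Of the 12 further alpha-granule genes, 10 were tested in IR against Ctrl and 11 in each group against IR. Of these, 3 were called lower and 1 higher in IR than in Ctrl, 4 higher and 1 lower in Ab_IR than in IR, and 4 higher and 1 lower in L_IR than in IR. Thbs1 (thrombospondin, an alpha-granule protein) had the order of Ppbp, at 21 to 24.7 FPKM in Ctrl, 5.79 to 6.25 FPKM in IR, 33.5 to 34.6 FPKM in Ab_IR and 27.1 to 29.3 FPKM in L_IR. It was called lower in IR (-1.75, adjusted p 3.05e-05), and none of the other 3 genes written first in that list was called. Srgn, a proteoglycan core gene of many blood cells, had 525 to 745 FPKM in Ctrl and 660 to 702 FPKM in IR (adjusted p 0.619). The coagulation factor gene F5 differed by -0.74 (adjusted p 0.0162) and F13a1 by 0.31 (adjusted p 0.0468) in IR, both short of the difference of 1.

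Of the 19 receptor and partner genes, 12 were tested in IR against Ctrl and 15 in each group against IR. Of these, 3 were called lower in IR than in Ctrl, and 5 and 2 were called higher in Ab_IR and L_IR than in IR, with none called in the opposite direction. All 3, 4 of the 5 and 1 of the 2 were genes whose IR values were all under 1 FPKM. Itgb3, the partner of Itga2b, was listed at 6.59 to 7.58 FPKM in Ctrl and 3.03 to 3.54 FPKM in IR (-0.87, adjusted p 0.000537). It was at 11.4 to 11.9 FPKM in Ab_IR and 8.73 to 8.75 FPKM in L_IR, called higher than IR in both (1.53 and 1.16). Clec1b, the podoplanin receptor gene, was at 0.50 to 0.68 FPKM in Ctrl, 0.11 to 0.16 FPKM in IR, 1.24 to 1.51 FPKM in Ab_IR and 0.70 to 0.76 FPKM in L_IR, the order of Ppbp. Selp (P-selectin) did not pass the test in any comparison, at 1.52 to 2.92 FPKM over all libraries of Ctrl and IR.

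Signalling genes beneath GPVI and GPIb mostly stayed within the difference of 1. Among 18 of them, of which 16 were tested in IR against Ctrl and 18 in the others, 2 were called lower and 1 higher in IR than in Ctrl, 4 higher and 1 lower in Ab_IR than in IR, and 2 higher and 1 lower in L_IR than in IR. Of the genes called higher, 2 of the 4 in Ab_IR and 1 of the 2 in L_IR had all their IR values under 1 FPKM. Fcer1g, the signalling chain that GPVI needs at the surface, had 25.4 to 54.5 FPKM in Ctrl and 44.7 to 48.6 FPKM in IR (adjusted p 0.464), while Gp6 was lower in IR without overlap. Lat, an adaptor, was lower in IR by 0.82 on the log2 scale (adjusted p 0.0022), and Plcg2 was higher by 0.51 (adjusted p 0.00937), neither past the difference of 1. Lcp2 had 16.4 to 20.1 FPKM in Ctrl and 17.7 to 20.2 FPKM in IR (adjusted p 0.512).

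Of 15 transcription factor genes, all tested in IR against Ctrl and 14 in each group against IR, 5 were called lower in IR than in Ctrl, and the count called higher than in IR was 5 in Ab_IR and 5 in L_IR. Gata1, the lead factor of MK and erythroid cells, fell from 36.8 to 38.8 FPKM in Ctrl to 6 to 7.04 FPKM in IR (-2.39, adjusted p 8.69e-06). It was at 39.4 to 42.1 FPKM in Ab_IR and 25.0 to 26.1 FPKM in L_IR. Gfi1b, a repressor of the same cells, fell by 2.40 on the log2 scale in IR (adjusted p 3.05e-05) and was at 30.4 to 33.7 FPKM in Ab_IR against 29.2 to 33.2 FPKM in Ctrl. Nfe2, required for platelet release, was lower in IR by 0.47 on the log2 scale (adjusted p 0.00494). Fli1, an ETS factor of MKs, went the other way, at 18.8 to 20 FPKM in Ctrl and 26.2 to 26.8 FPKM in IR (0.44, adjusted p 0.00139). Against Ctrl, Gata1 differed by 0.10 in Ab_IR, with an adjusted p of 0.373, while Ppbp differed by 2.25. In L_IR it differed by -0.55 (adjusted p 0.0024), while Ppbp differed by 1.35.

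Of the 16 genes of cytoskeleton, membrane and granule assembly, 15 were tested in IR against Ctrl, 15 in Ab_IR against IR and 14 in L_IR against IR. The list had 2 called lower and 1 higher in IR than in Ctrl, 3 higher and 1 lower in Ab_IR than in IR, and 2 higher and none lower in L_IR than in IR. By the adjusted p alone, 5 were higher and 8 lower in Ab_IR than in IR, and 5 higher and 7 lower in L_IR. Of all tested genes, 39.4% were higher and 29.4% lower by the adjusted p alone in Ab_IR, and 40.8% and 26% in L_IR. The medians of the list were 0.25, -0.16 and -0.09, opposite in sign to those of the 9 genes. Tubb1, the tubulin of platelets, resembled Ppbp, at 2.28 to 3.77 FPKM in Ctrl, 0.33 to 0.64 FPKM in IR, 11.8 to 12.4 FPKM in Ab_IR and 6.85 to 8.23 FPKM in L_IR. It was 1 of the 2 called lower in IR, of the 3 called higher in Ab_IR and of the 2 called higher in L_IR. As its IR values were all under 1 FPKM, it passed the filter of these 3 comparisons through the other group only. Tubb1 was called higher than Ctrl in both groups, by 1.80 in Ab_IR with an adjusted p of 0.00232 and by 1.19 in L_IR with one of 0.00621. Over the 80 genes, 74 were tested against Ctrl in each group. In Ab_IR, 2 were called higher (Tubb1 and Alox12) and 1 lower (Sparc), beside 0.692% and 0.231% of all tested genes. In L_IR, 2 were called higher (Tubb1 and Ccl5) and 1 lower (Sparc), beside 2.03% and 0.620%, so the share called higher was near that of all genes. Alox12, Ccl5 and Sparc were named after their values were seen. Myl9, a myosin light chain gene, was called higher than IR in Ab_IR (1.57) but not in L_IR (0.68). Myh9, the platelet myosin heavy chain gene, was lower than IR by 0.51 on the log2 scale in Ab_IR, and Cavin2 was higher than IR by 0.78 in Ab_IR and 0.67 in L_IR, all short of the difference of 1.

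**Figure D4:**
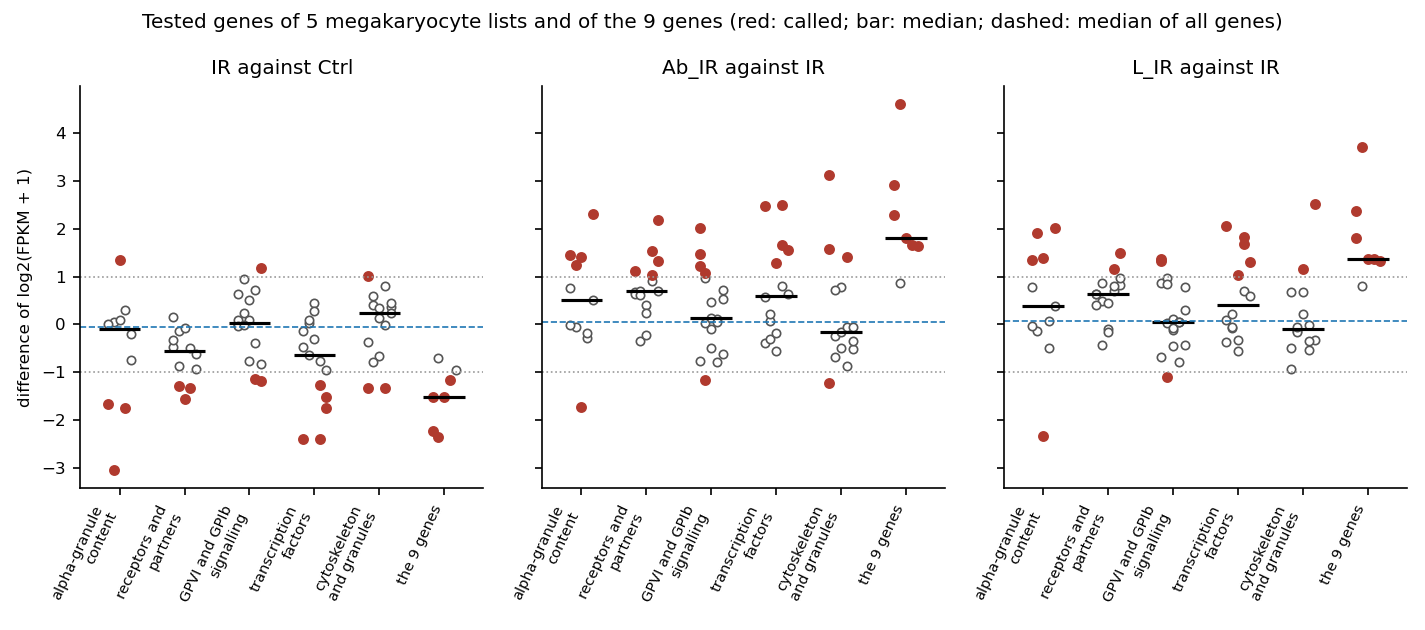
Differences of log2(FPKM + 1) for the tested genes of 5 MK lists and for the 9 genes, in IR against Ctrl, Ab_IR against IR and L_IR against IR. Red points passed both thresholds, bars are medians and the dashed line is the median of all tested genes, and the 9 genes have the median farthest from it in each panel (-1.52, 1.80 and 1.38).

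Markers of some other blood cells moved with these genes. The counts called in each marker list stand beside these shares of all tested genes: 4.57% lower and 3.03% higher in IR than in Ctrl, 5.11% higher and 2.46% lower in Ab_IR than in IR, and 4.09% higher and 2.13% lower in L_IR than in IR. Of the erythroid genes, 15 of 15 tested were called lower in IR than in Ctrl and 14 of 15 were called higher in Ab_IR and 14 in L_IR than in IR. Their summed level was 4237 to 4778 FPKM in Ctrl, 701 to 713 FPKM in IR, 4031 to 4227 FPKM in Ab_IR and 2134 to 2195 FPKM in L_IR. Against Ctrl, 0 of 15 erythroid genes were called in Ab_IR by limma, 1 being lower by the adjusted p alone, as were 0.651% of all tested genes. In L_IR, 6 were called lower than in Ctrl, beside 0.620% of all genes. Of the 9 genes, 7 were tested there, with 0 called lower and 1 higher (Ppbp). Mast cell and basophil genes followed as well, with sums of 591 to 672 FPKM in Ctrl, 212 to 219 FPKM in IR, 784 to 837 FPKM in Ab_IR and 495 to 518 FPKM in L_IR. For these, 5 of 6 tested were called lower in IR than in Ctrl and 5 of 6 higher in Ab_IR and 6 of 7 higher in L_IR than in IR, and Tpsab1 was at 0 in all libraries of Ctrl, IR and Ab_IR.

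Of 14 sort and stem cell genes, 9 were tested in each of these comparisons, and some of them moved with the genes described here. The list pools genes of antigens that the sorted cells carry (Kit and Ly6a) with genes of antigens that they lack (Cd34 and Flt3). In IR, 4 genes of the list were called lower and 0 higher than in Ctrl, beside 4.57% and 3.03% of all tested genes. Against IR, 4 were called higher in Ab_IR and 3 in L_IR, beside 5.11% and 4.09%, with 0 lower in both. By the adjusted p alone, 7 were higher and 2 lower in each group against IR, beside 39.4% and 29.4% of all tested genes in Ab_IR and 40.8% and 26% in L_IR. Their median differences were -0.96, 0.76 and 0.71, and their sums were 166 to 183 FPKM in Ctrl, 103 to 113 FPKM in IR, 148 to 169 FPKM in Ab_IR and 155 to 163 FPKM in L_IR. Kit, which encodes the c-Kit receptor used in the sort, was at 21.3 to 25.5 FPKM in Ctrl, 6.7 to 7 FPKM in IR, 17.4 to 19.1 FPKM in Ab_IR and 17.8 to 18 FPKM in L_IR. Cd34 was at 16.8 to 18.3 FPKM in Ab_IR and 15.6 to 16.1 FPKM in L_IR, and Flt3 at 7.45 to 7.57 FPKM and 5.6 to 6.02 FPKM, all above their IR levels. Ly6a, which encodes Sca-1, a further marker of the sort, went the other way, at 25.9 to 41.1 FPKM in Ctrl, 53.7 to 61.5 FPKM in IR, 35.7 to 41.2 FPKM in Ab_IR and 45.4 to 45.8 FPKM in L_IR. Hlf, a stem cell factor gene, was lower than in IR by 0.40 on the log2 scale in Ab_IR and 0.42 in L_IR (adjusted p 0.00106 and 0.000902).

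The sums of neutrophil and monocyte genes and of B and plasma cell genes had other orders of the groups. Some members did not follow these sums and had their lowest mean in IR. Ly6c2 had means of 158, 35.1, 101 and 92.5 FPKM in Ctrl, IR, Ab_IR and L_IR. In the same order, Csf1r had 17, 7.88, 19.9 and 20.5 FPKM, and Cd79b had 13.4, 8.23, 19 and 19.4 FPKM. These 3 genes were named after their values were seen. Neutrophil and monocyte genes summed to 9553 to 11443 FPKM in Ctrl, 14763 to 15058 FPKM in IR, 10847 to 11391 FPKM in Ab_IR and 7650 to 7855 FPKM in L_IR. Of 16 tested, 5 were called higher and 2 lower in IR than in Ctrl, 2 higher and 5 lower in Ab_IR than in IR, and 2 higher and 10 lower in L_IR than in IR. B and plasma cell genes summed to 10188 to 13401 FPKM in Ctrl, 17761 to 19006 FPKM in IR, 18081 to 18720 FPKM in Ab_IR and 25875 to 26752 FPKM in L_IR. Of these, 3 of 10 tested were called higher and 0 lower in IR than in Ctrl, 3 of 13 higher and 1 lower in Ab_IR than in IR, and 2 of 11 higher and 0 lower in L_IR than in IR. In the B and plasma cell list, 2 of the 3 genes with a call for higher levels in Ab_IR had every IR value under 1 FPKM. They passed the filter through the Ab_IR libraries only. The part of these blood cells, and of the heart transcript split, in the levels of the 9 genes was not tested.

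**Figure D5:**
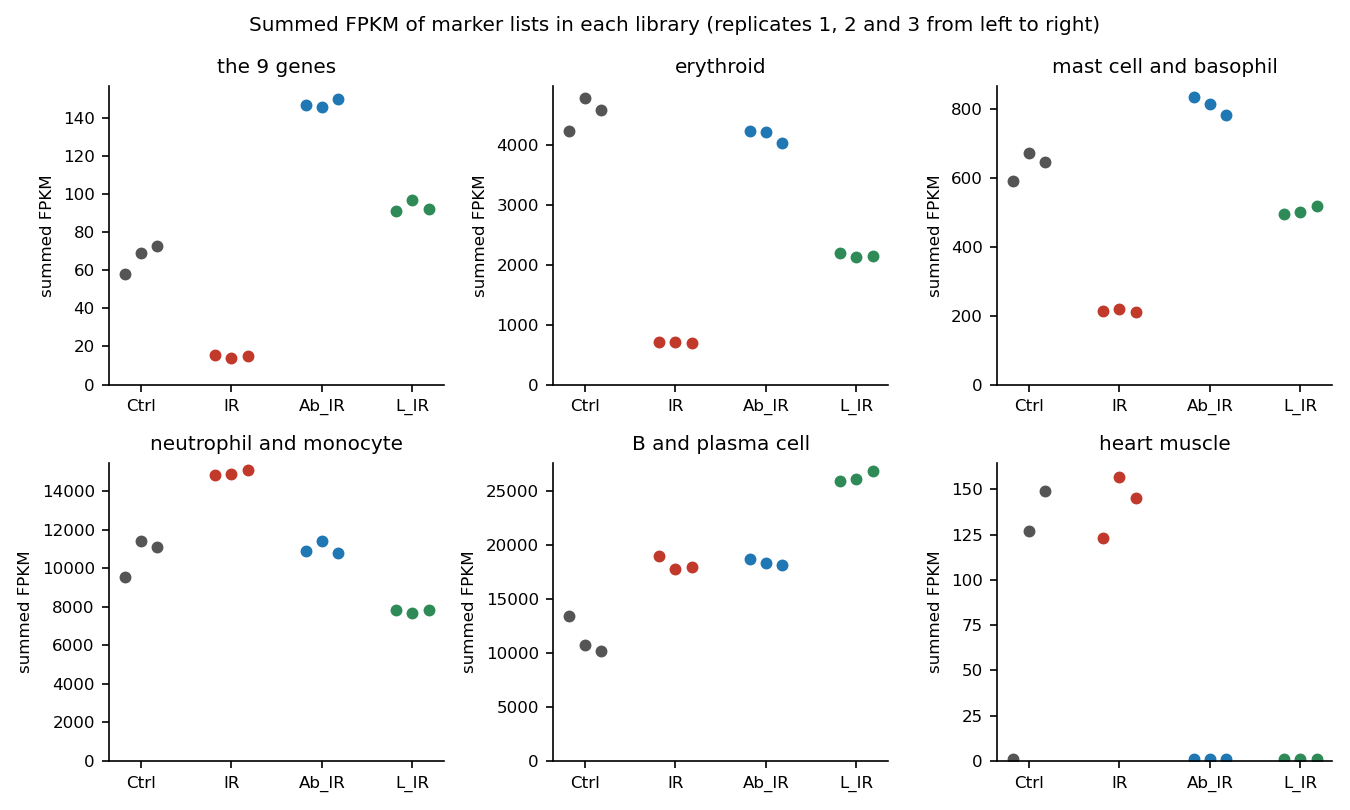
Summed FPKM of the 9 genes and of 5 marker lists in each library (linear axes, points are replicates 1 to 3 from left to right). The 9 genes, the erythroid and the mast cell and basophil lists are lowest in IR, and the heart muscle list is at 0.87 to 1.24 FPKM in Ctrl replicate 1, Ab_IR and L_IR and at 123 to 157 FPKM in the other 5 libraries.

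The 3 genes with the most similar profile were sought for 7 of the 9, all but Gp1bb and Gp6, among 12008 genes whose mean was 1 FPKM or more, by Pearson's r of log2(FPKM + 1) over 12 libraries, as a description. Ppbp was most like Sema7a (r 0.989), Tubb1 (0.988) and Fth1 (0.984), and Pf4 was most like Slc38a5 (0.993), Ear10 (0.993) and Parvb (0.992). Itga2b was most like Nfkbia, Alox15 and Bex3 (all 0.996), and Gp9 most like Ramp1 (0.994), Hpn (0.993) and Necap2 (0.991). Gp5 was nearest to Kcnn4 (0.991), Itgb3 (0.988) and Sin3b (0.982), and Gp1ba to Natd1 (0.985), Psap (0.984) and Kcnn4 (0.983). Vwf was nearest to Tcf3 (0.995), 6030468B19Rik (0.990) and Tmem229b (0.989). Tubb1 and Itgb3 were the only genes of the wider MK lists among these 21 places, and Ear10 has near-identical copies, among which reads may have been split.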

How the data were processed

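RNA-seq was made from sorted cells in 12 libraries, and the labels name a stranded poly(A) kit. The authors trimmed reads with fastp. Their methods name RSEM for quantification, while the submitters' processing notes name HISAT2, StringTie and the GRCm38/mm10 build, so which tool made the tables is open. The deposited tables hold FPKM per gene with 2 decimals and name no unit. Sums of 344338 to 405123 per library and length-weighted sums of 913837 to 945611 were read as FPKM. Rounding to 2 decimals is too coarse to tell whether values at the low end were multiples of a read's worth, and no count test was run. Genes that reached 1 FPKM in at least 3 fitted libraries were tested with limma 3.58.1 (trend) in R 4.3.3 on log2(FPKM + 1) of the 2 groups compared, adjusted over all genes tested and called at an adjusted p under 0.05 and an absolute difference above 1. The genes, lists, named genes (all 9, the first 4 of each wider list, 1 of which is not reported here, and the 3 most similar genes) and tests were chosen with earlier results of these data known. Figures were drawn with matplotlib 3.10.9.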

Additional observations from a re-analysis of the deposited data

How the results depend on the processing

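Alternatives changed the pseudocount (0.1), the filter (none, or a mean of at least 10 FPKM), the scaling (quantiles or the median log2 ratio), the model (no trend, a fit of all 12 libraries, a replicate block, the heart transcript split as a term), the summing of rows with 1 gene name, and the libraries, each left out in turn. Of 663 recomputed values over 43 tested pairs of gene and comparison, 653 kept their direction and their call, which needs both thresholds. The adjusted p alone crossed 0.05 in 32 of the 663. Against Ctrl, 1 to 7 genes were under 0.05 in Ab_IR and 1 to 3 in L_IR, with 3 to 6 in Ab_IR against L_IR. With a mean of at least 10 FPKM, 3 genes were left to test (Pf4, Ppbp and Itga2b), and 3 were called in IR against Ctrl, Ab_IR against IR and L_IR against IR. With the split as a term, 2 genes were called in Ab_IR against Ctrl (Ppbp and Gp9). Signs turned for Gp1bb between Ab_IR and L_IR without L_IR replicate 3 (-0.13; up to 0.41 without other libraries), for Pf4 between L_IR and Ctrl without Ctrl replicate 1 (-0.0043; up to 0.26) and for Gp1ba between L_IR and Ctrl with the split as a term (-0.13). In each of these the adjusted p was above 0.05, and the cause was not tested. Leaving out 1 library gave 5 to 6 called genes in IR against Ctrl, 6 in Ab_IR and in L_IR against IR, 1 in either group against Ctrl and 0 in Ab_IR against L_IR. Gp5 was the gene gained in IR against Ctrl, without Ctrl replicate 2. Replicate numbers were shared by the groups, but same-numbered libraries did not deviate together (r -0.27 to 0.22), and the replicate block gave 5, 6, 6, 0, 1 and 1 called genes in the 6 comparisons, as without it. Over all genes, called counts moved by more than 1.5 times. In Ab_IR against IR they were 914 (1512 with a pseudocount of 0.1, 367 at a mean of at least 10 FPKM, 2079 with the split), in L_IR against IR 756 (1294, 302 and 1662), in Ab_IR against L_IR 65 (165 with that pseudocount, 42 at that mean), and in IR against Ctrl 918 (405 at a mean of at least 10 FPKM). Against Ctrl they were 112 in Ab_IR (70 at that mean, 73 with no filter, 860 with the split, 60 to 123 leaving out a library) and 325 in L_IR (206 and 916). Quantile normalization moved the share of calls that were higher in L_IR than in IR from 65.7% to 54.9%. FPKM give no depth, so no limit of detection can be set for Gp6 and Gp1bb.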
